A study of Drosophila melanogaster with 6 samples.

Results

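The 10 genes described here encode peptide hormones and neuropeptides made by enteroendocrine cells of the fly midgut, namely NPF, Tk, Dh31, Orcokinin, AstC, AstA, CCHa1, CCHa2, ITP and Nplp2. They were taken by symbol from a table of 13189 Drosophila genes, and all 10 had a row there. Enteroendocrine cells are scattered hormone-secreting cells of the gut epithelium. They arise from intestinal stem cells through precursors that still express the stem cell factor escargot (esg), and mature cells of different midgut regions carry different sets of hormones. Each hormone is cut from a larger precursor at basic residues, trimmed, often amidated at its end, stored in dense-core vesicles and released onto receptors in other tissues.

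The cells were intestinal progenitors of Drosophila melanogaster, sorted as GFP-positive cells from dissociated midguts, with the gate set on flies in which esg drives GFP. The comparison was of 3 libraries labelled wildtype, called control here, with 3 libraries labelled Pex5-depleted, called the Pex5-labelled libraries below. Pex5 encodes the import receptor of peroxisomes. Each replicate was a pool of 200 guts and about 40000 sorted cells, so a value averages over many animals and all midgut regions. The labels used here do not give the means of the depletion, or the sex or age of the flies. Nothing in them ties a control replicate to a Pex5-depleted one, and the replicates are called biological.

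Libraries held 2573882 to 4793433 UMIs, which are molecular tags that let copies of one captured molecule be counted once, and 8890 to 10349 detected genes. The Pex5 transcript itself had 8, 6 and 14 UMIs in control replicates 1, 2 and 3, against 2, 21 and 41 in the Pex5-labelled libraries, so it does not bear out the labels, and every direction below rests on them. Progenitor markers were plentiful in both groups, with a summed level of 836 to 1058 CPM (UMIs scaled to a common library size) in the controls and 932 to 1232 CPM in the other group over 13 genes. Of these 11 were tested and 0 passed, with mira, an adaptor of asymmetric stem cell division, giving the smallest p (log2 fold change 1.67, SE 0.44, edgeR adjusted p = 0.0788). The 14 enterocyte markers summed to 318 to 657 CPM in the controls and 814 to 837 CPM in the Pex5-labelled libraries. Of their 11 tested genes 2 were called higher, against 0.833% of all tested genes. These were the protease gene Jon25Biii (log2 fold change 3.33, SE 0.56, edgeR adjusted p = 0.00866) and the amylase gene Amy-p (1.26, SE 0.25, edgeR adjusted p = 0.0246). In the 6 fits without 1 library Jon25Biii kept its call in 4 and Amy-p in 2. Jon25Biii alone added 8.69, 41.3 and 8.54 CPM to the sums of the controls against 96.2, 141 and 341 CPM in the other group. Neuron markers, of which 10 of 12 had a row, summed to 39.4 to 52.2 and 41.0 to 63.2 CPM, with 0 of 6 tested genes past the threshold and elav, a neuronal RNA-binding protein gene, giving the smallest p (0.93, SE 0.63). The genes of this list without a row were ChAT and VAChT, which mark cholinergic neurons only. Visceral muscle markers summed to at most 10.6 and 13.3 CPM, and haemocyte and fat body markers to at most 2.17 and 1.47 CPM. The part that a change in these other cells had in the hormone values was not tested.

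All 10 hormone genes passed the low-count filter, and every one of the fitted log2 fold changes (Pex5-depleted over control) was negative, where 47.3% of all tested genes had a negative value. Only Orcokinin passed edgeR's quasi-likelihood test at a Benjamini-Hochberg adjusted p under 0.05, so 1 of 10 fell, 0 rose and 9 did not pass. Over all 5639 tested genes 0.816% were called lower and 0.833% were called higher. At an unadjusted p under 0.05, 7 of the 10 were lower, against 6.67% of all tested genes. The Pex5-labelled libraries all lay below all controls for 4 of the 10, NPF, Tk, Dh31 and Nplp2, against 9.42% of all tested genes, and above all controls for 0 of the 10, against 9.74%. The median log2 fold change was -1.18 over the 10 genes and 0.03 over all tested genes. The 10 genes were chosen with earlier results of these data known, so these shares and medians are not independent evidence of a joint fall. In pooled sorted cells, fewer enteroendocrine cells and less hormone RNA per cell cannot be told apart.

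**Figure D1:**
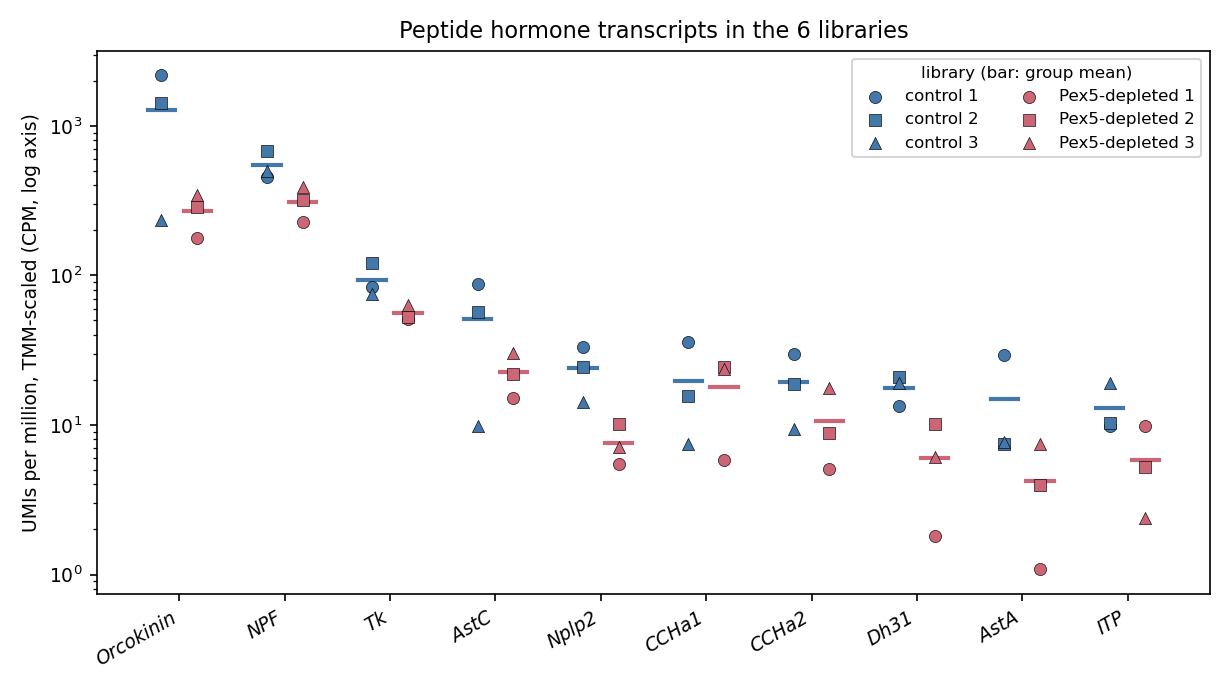
Level of each hormone transcript (CPM, log axis) in the 3 control libraries (blue) and the 3 Pex5-labelled libraries (red), with bars at the group means. For NPF and for Tk the replicates of a group sit close together, whereas control replicate 3 lies far below the other controls for Orcokinin and AstC.

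Orcokinin and NPF were by far the most abundant of the hormone transcripts, and the order of the control means was the same per molecule and per kilobase of the longest annotated transcript. Per kilobase the control means were 1193 CPM for Orcokinin, 942 for NPF, 57.6 for Tk, 42.6 for AstC, 39.3 for Nplp2, 23.0 for CCHa1, 14.6 for CCHa2, 13.7 for Dh31, 10.2 for AstA and 3.56 for ITP. Among CPM values the control ranges of NPF and Tk did not overlap, nor did those of Tk and Nplp2. The ranges of Orcokinin and NPF overlapped, those of AstC and Tk did, and the 6 least abundant genes all overlapped each other. In these 3' libraries each molecule is tagged once near its end, so the per-kilobase values correct for a length effect that the method need not have.

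NPF and Tk are both markers of one broad class of enteroendocrine cell, and Dh31 is often made with Tk. NPF (FBgn0027109, chromosome 3R, 16609220 to 16611325, plus strand) encodes neuropeptide F, the fly relative of vertebrate neuropeptide Y. It stood at 454, 684 and 498 CPM in control replicates 1, 2 and 3 and at 228, 319 and 388 CPM in the Pex5-labelled replicates. Every Pex5-labelled library was below every control, and the highest control was 1.51 times the lowest. The fitted log2 change of -0.81 (SE 0.21) had a 95% interval of -1.26 to -0.36, which leaves 57.2% of the control level, and with an adjusted p of 0.0793 in the edgeR fit it did not pass. NPF passed with no composition factor (adjusted p = 0.0221), with no count filter (0.000481), with DESeq2 (0.00490) and with limma-voom (0.0412), but not when any single library was left out (0.0678 to 0.222). A pass with no count filter carries little weight, here and for the genes below. That fit gave Orcokinin an SE of 0.17, against 0.51 in the main fit, although its controls lay far apart.

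Tk (FBgn0037976, chromosome 3R, 11994175 to 12005473, minus strand) encodes tachykinin, a hormone that restrains lipid synthesis in the gut. Its level was 83.3, 121 and 75.03 CPM in the controls against 51.2, 52.5 and 63.2 CPM in the other libraries. The groups did not overlap, and the Pex5-labelled replicates lay within a factor of 1.24 of each other. The estimate for Tk was -0.74 on the log2 scale (SE 0.24, 95% interval -1.25 to -0.23), and its adjusted p of 0.168 by edgeR became 0.0488 with DESeq2 (Benjamini-Hochberg in both).

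Dh31 (FBgn0032048, chromosome 2L, 8491868 to 8506845, minus strand) encodes a calcitonin-like diuretic hormone that drives fluid secretion and gut muscle contraction. It was counted 49, 61 and 71 times in the controls against 5, 48 and 18 times in the Pex5-labelled libraries. In CPM that is 13.3, 20.8 and 19.0 against 1.82, 10.1 and 6.15. The controls were close together, while the Pex5-labelled libraries spanned a factor of 5.56, with replicate 1 lowest. Its 5 UMIs there allow 0.589 to 4.24 CPM (exact Poisson 95% interval, counting error only). The log2 fold change was -1.51 (SE 0.55), and edgeR returned an adjusted p of 0.224.

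Orcokinin (FBgn0034935, chromosome 2R, 23946959 to 23949076, minus strand) encodes the precursor of the orcokinin peptides, a family first found in crustaceans. It was counted 8012, 4176 and 878 times in control replicates 1, 2 and 3 and 493, 1371 and 1006 times in the other libraries. The levels were 2175, 1424 and 234 CPM against 179, 288 and 344 CPM, so control replicate 3 lay inside the range of the Pex5-labelled libraries and the groups overlapped. Orcokinin fell by 2.24 on the log2 scale (SE 0.51), the interval running from -3.32 to -1.16, and edgeR returned an adjusted p of 0.0417. Without control replicate 3 the fold change was -2.74 and passed (edgeR adjusted p = 0.000165). Each of the other 5 fits without 1 library ended the call, with fold changes of -1.62 to -2.47 and adjusted p of 0.0514 to 0.227. DESeq2 (0.0936) and limma-voom (0.117) also ended it. With no count filter the SE was 0.17 and the edgeR adjusted p was 1.34e-36, although the controls spanned a factor of 9.28.

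AstC (FBgn0032336, chromosome 2L, 11076165 to 11081399, minus strand) encodes allatostatin C, a relative of somatostatin and the marker of the other broad class of enteroendocrine cell. It stood at 87.1, 56.6 and 9.88 CPM among the controls and at 15.2, 22.1 and 30.1 CPM in the Pex5-labelled libraries. As with Orcokinin, control replicates 1 and 2 were high and control replicate 3 was low, here below all 3 Pex5-labelled libraries. The log2 fold change was -1.19 (SE 0.53), and edgeR returned an adjusted p of 0.344. Without control replicate 3 it was -1.68 and passed (0.0412), and with no count filter it passed as well (0.0128). Without control replicate 1 it was -0.56 (adjusted p = 0.785).

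Nplp2 (FBgn0040813 in the count table, chromosome 3L, 13356376 to 13357223, plus strand) encodes a neuropeptide-like precursor. It was at 33.1, 24.6 and 14.2 CPM among the controls and at 5.45, 10.1 and 7.17 CPM in the other group, with no overlap. Its log2 fold change of -1.64 (SE 0.44) left 32.1% of the control level, and its adjusted p of 0.0909 by edgeR did not pass. It passed with DESeq2 (0.0149) and with no count filter (0.0209), and in none of the fits without 1 library (0.0768 to 0.343, Benjamini-Hochberg in each).

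AstA (FBgn0015591, chromosome 3R, 24760530 to 24765071, minus strand) encodes allatostatin A, which restrains feeding. It had 108, 22 and 29 UMIs in the controls against 3, 19 and 22 in the Pex5-labelled libraries, or 29.3, 7.50 and 7.74 against 1.09, 3.99 and 7.52 CPM. Control replicate 1 was the high library and Pex5-labelled replicate 1 the low one, and the remaining 4 lay between 3.99 and 7.74 CPM. The log2 fold change was -1.82 (SE 0.70), for which edgeR gave an adjusted p of 0.264. Without control replicate 1 it was -0.86.

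The genes CCHa1 and CCHa2 encode small nutrient-responsive peptides, of which CCHa2 acts on the insulin-producing cells of the brain. CCHa1 (FBgn0038199, chromosome 3R, 14092504 to 14096835, minus strand) stood at 35.8, 15.7 and 7.48 CPM among the controls and at 5.81, 24.4 and 23.6 CPM in the other group. The groups overlapped between 7.48 and 24.4 CPM, and control replicate 1 stood above every Pex5-labelled library. On the log2 scale the estimate was -0.12 (SE 0.56), and the 95% interval ran from -1.32 to 1.07, so a difference of about a factor of 2 either way lies within the interval, and the sign turned to 0.64 without control replicate 1 and to 0.28 without Pex5-labelled replicate 1. CCHa2 (FBgn0038147, chromosome 3R, 13389059 to 13395197, minus strand) was at 29.9, 18.8 and 9.35 CPM against 5.08, 8.83 and 17.8 CPM, a log2 fold change of -0.87 (SE 0.52) with overlapping groups (adjusted p = 0.526 in the edgeR fit). It was -0.41 without control replicate 1, -0.56 without Pex5-labelled replicate 1 and -1.47 without Pex5-labelled replicate 3.

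ITP (FBgn0035023, chromosome 2R, 24537421 to 24558961, plus strand) encodes ion transport peptide, an antidiuretic hormone. It was at 9.77, 10.2 and 19.0 CPM among the controls and at 9.80, 5.25 and 2.39 CPM in the Pex5-labelled libraries. Here control replicate 3 was the high control, the reverse of its place for Orcokinin and AstC, and the groups overlapped by a small margin. The log2 fold change was -1.17 (SE 0.58), and edgeR returned an adjusted p of 0.413. Exons of ITP overlap those of CG4622 on the opposite strand, which had 1 to 10 UMIs per library, and whether strand was used in counting is not given in the sources used here. Transcripts of the other 9 genes share no exon with another annotated gene.

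**Figure D2:**
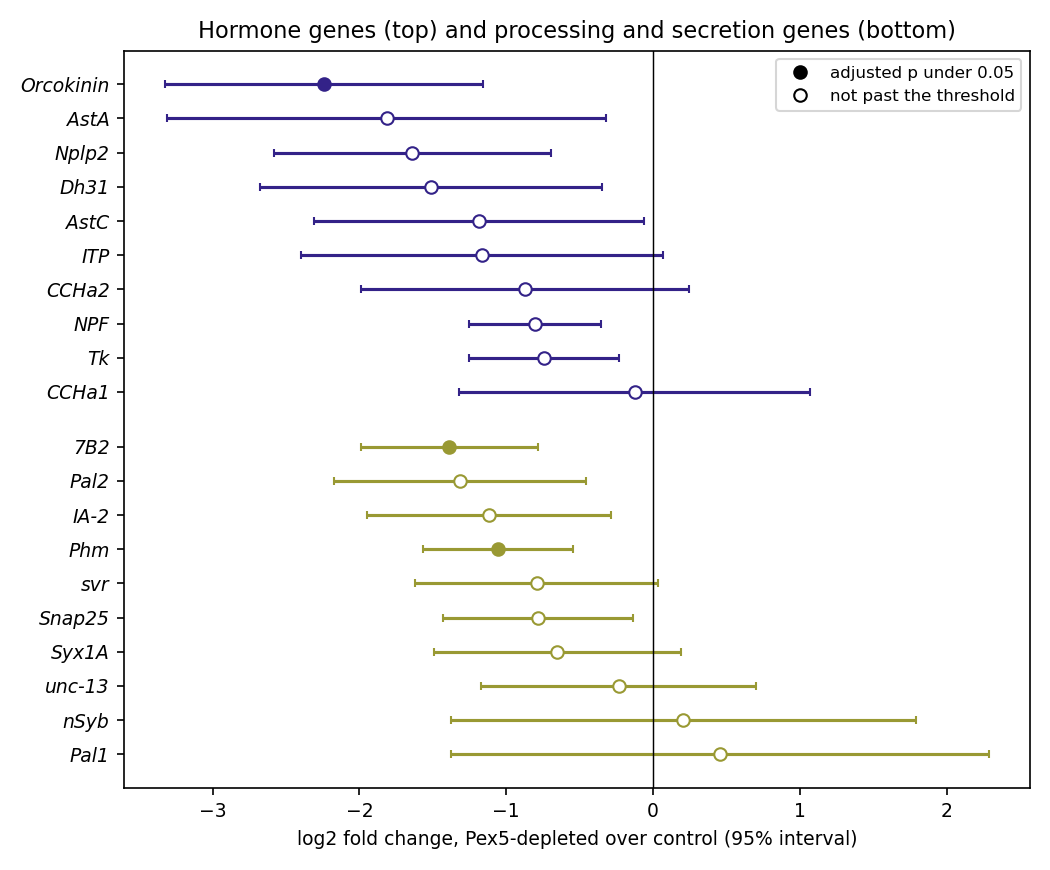
Log2 fold change with its 95% interval for the 10 hormone genes (top) and the 10 tested genes of prohormone processing and secretion (bottom), filled where the adjusted p was under 0.05. Orcokinin, 7B2 and Phm are the filled points, and 18 of the 20 points lie below 0, against 47.3% of all tested genes. Pal1 and nSyb lie above 0. Both gene lists were chosen with earlier results of these data known.

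Replicates lay close together for some hormones and far apart for others. Over the controls the highest CPM was 9.28 times the lowest for Orcokinin, 8.82 times for AstC, 4.79 for CCHa1, 3.91 for AstA, 3.20 for CCHa2 and 2.34 for Nplp2, but 1.51 for NPF, 1.62 for Tk, 1.56 for Dh31 and 1.94 for ITP. Over all tested genes with no library at 0, the median of this ratio was 1.84 in the controls and 1.74 in the other group. Among the Pex5-labelled libraries it was 1.92 for Orcokinin, 1.97 for AstC, 1.71 for NPF and 1.24 for Tk. It was wide there for AstA (6.90), Dh31 (5.56), CCHa1 (4.20) and ITP (4.10), and 3.50 and 1.85 for CCHa2 and Nplp2. The lowest counts behind these ratios were 3, 5, 16, 7, 14 and 15 UMIs.

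The make-up of the hormone pool showed the same spread. The 10 genes together held 10870, 6990 and 3348 UMIs in control replicates 1, 2 and 3, or 0.307%, 0.232% and 0.0944% of the library, and 1383, 3543 and 2604 UMIs in the other group, or 0.0537%, 0.0739% and 0.0783%. Orcokinin made up 73.7%, 59.7% and 26.2% of these UMIs in the controls against 35.7%, 38.7% and 38.6% in the Pex5-labelled libraries. NPF made up 15.4%, 28.7% and 55.7% in the controls against 45.3%, 42.9% and 43.6% in the other group. For Orcokinin and NPF the Pex5-labelled libraries thus agreed closely with each other and lay between control replicates 2 and 3. This did not hold for every hormone. ITP made up 1.95%, 0.706% and 0.269% in the Pex5-labelled libraries. AstC made up 3.04%, 2.96% and 3.38% there, above the 2.95%, 2.38% and 1.11% of control replicates 1, 2 and 3. The exact binomial 95% interval of control replicate 1 ran from 2.64% to 3.29%, so it did not differ from Pex5-labelled replicates 1 and 2 beyond counting error. Exact binomial 95% intervals, which cover counting error only, were at most 33.1% to 38.2% for Orcokinin in Pex5-labelled replicate 1, far narrower than the distance between controls. With Orcokinin left out of the sum, NPF was 58.5%, 71.3% and 75.5% in the controls against 70.5%, 69.9% and 71.1% in the other group.

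**Figure D3:**
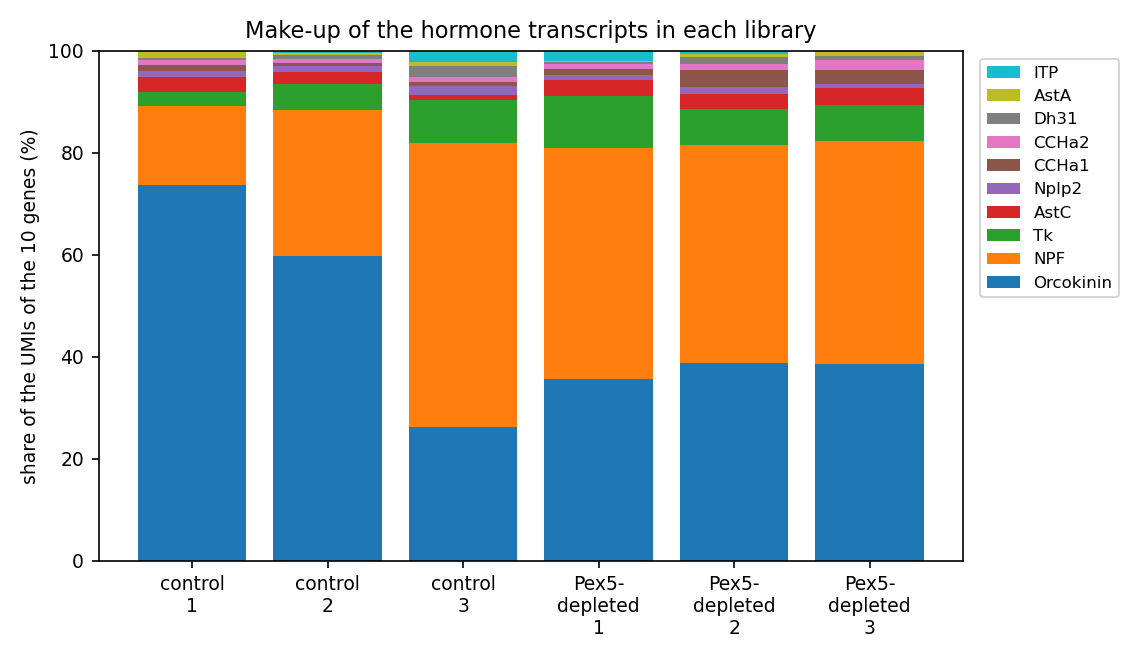
Share of each gene among the UMIs of the 10 hormone genes (%, y axis) in each of the 6 libraries. Orcokinin falls from 73.7% in control replicate 1 to 26.2% in control replicate 3, while the 3 Pex5-labelled libraries hold 35.7% to 38.7%.

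Ratios of one hormone to another within a library need no normalization factor, and 5 of them were compared between the groups with two-sided exact permutation tests, which cannot go below 0.10 with 3 libraries against 3. The ratio of NPF to Tk was steady, at 5.45, 5.64 and 6.64 in the controls against 4.45, 6.08 and 6.14 in the other group (log2 difference -0.10, p = 0.7, adjusted p = 0.875 by the exact permutation test). That of Orcokinin to NPF was 4.79, 2.08 and 0.471 in the controls against 0.786, 0.903 and 0.886, a log2 difference of -0.97 that was smaller than the control SD of 1.70 (exact permutation p = 0.4, adjusted p = 0.667). Orcokinin to Tk went from 26.1, 11.7 and 3.13 to 3.50, 5.48 and 5.44 (log2 difference -1.07, exact permutation p = 0.4, adjusted p = 0.667). AstC to Tk was 1.05, 0.466 and 0.132 in the controls against 0.298, 0.420 and 0.476 in the other group (log2 difference -0.04, exact permutation p = 1.0). Dh31 to Tk was 0.160, 0.171 and 0.253 against 0.0355, 0.192 and 0.0973 (log2 difference -1.13, exact permutation p = 0.3, adjusted p = 0.667). None of the 5 ratios separated the groups. Without control replicate 1 the difference was -0.21 for Orcokinin to NPF and -0.36 for Orcokinin to Tk, and without control replicate 3 it was -1.88 and -1.89. That of Dh31 to Tk was -0.48 without Pex5-labelled replicate 1 and -1.70 without replicate 2 of that group.

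The enzymes and vesicle proteins that process and release peptide hormones were looked at beside the hormones. Of 19 such genes 10 were tested, of which 2 fell, 0 rose and 8 did not pass, with 8 negative fold changes and a median of -0.79. Over all tested genes 0.816% were called lower and 47.3% were negative. The list of processing and secretion genes was also chosen with earlier results of these data known. The positive values were those of Pal1 (0.46, SE 0.86) and nSyb (0.21, SE 0.74). 7B2, a chaperone of the prohormone convertase, had 52.7, 67.9 and 43.5 CPM in the controls against 20.3, 18.5 and 23.9 CPM in the other group (log2 fold change -1.39, SE 0.28, edgeR adjusted p = 0.0247). Phm, which carries out the first step of peptide amidation, had 151, 120 and 145 CPM against 45.4, 67.7 and 86.8 CPM (-1.06, SE 0.24, edgeR adjusted p = 0.0417). Neither group pair overlapped, and in the 6 fits without 1 library 7B2 kept its call in 1 and Phm in 2. The peptidylglycine lyase gene Pal2, the second amidation step, was at 64.04 ± 17.9 against 25.7 ± 16.9 CPM, the carboxypeptidase D gene svr at 20.0 ± 3.49 against 11.5 ± 2.31 CPM and the vesicle membrane gene IA-2 at 24.4 ± 4.52 against 11.1 ± 3.82 CPM (SD, n = 3 each). None of these 3 passed. The convertase gene amon had 9, 27 and 26 control UMIs and 1, 11 and 5 in the other group, and did not pass the low-count filter.

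Of the 9 enteroendocrine fate factors only tap and Ptx1 were tested and neither passed. They went in opposite directions, with Ptx1 higher in the Pex5-labelled libraries (log2 fold change 0.47, SE 0.89). Among the untested factors, ase, dimm, mirr and sc had the higher mean in the Pex5-labelled group, each from few UMIs. Those of phyl and Poxn were lower, from fewer UMIs still. The basic helix-loop-helix gene tap was counted 63, 41 and 21 times in the controls against 5, 13 and 3 times in the Pex5-labelled libraries, with a log2 fold change of -2.66 (SE 0.67) and an edgeR adjusted p of 0.0671. The homeodomain gene pros, the usual nuclear marker of enteroendocrine cells, had only 4, 4 and 5 UMIs in the controls against 2, 8 and 19 in the other group. Its mean of 1.26 CPM in the controls lay close to the floor of 3 UMIs.

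The summed level of 7 enteroendocrine markers that are not hormones (pros, tap, sc, Phm, 7B2, amon and IA-2) was 253, 243 and 223 CPM in control replicates 1, 2 and 3 and 80.6, 110 and 133 CPM in the Pex5-labelled libraries. Each Pex5-labelled library was below each control, and unlike Orcokinin the controls were close together. This sum, and each ratio to it below, rests mostly on Phm and 7B2, both called lower above, which held 77.4% to 84.8% of the marker UMIs in each library. The other 5 markers summed to 49.1, 54.9 and 33.9 CPM in the controls against 14.9, 24.4 and 22.2 CPM. Within them pros (1.26 to 2.97 CPM) and sc (1.90 to 3.13 CPM) had the higher mean in the Pex5-labelled group. The fate factors Ptx1, ase, dimm, mirr, phyl and Poxn were not part of the sum. Set against these markers, NPF gave 1.80, 2.82 and 2.24 UMIs per marker UMI in the controls against 2.82, 2.89 and 2.92 in the other group. Tk gave 0.330, 0.50 and 0.337 against 0.635, 0.475 and 0.476. Orcokinin gave 8.61, 5.87 and 1.05 in the controls against 2.22, 2.61 and 2.59 in the other group. All 10 hormones but Orcokinin together gave 3.07, 3.95 and 2.96 against 4.01, 4.13 and 4.11 UMIs per marker UMI. Of the 4 hormones whose CPM was lower in every Pex5-labelled library than in any control, NPF and Tk had no lower mean per marker UMI. A ratio to markers that are themselves lower rises for any hormone that falls less. Dh31 and Nplp2 had a lower mean, at 0.0745 ± 0.0189 against 0.0534 ± 0.0349 and 0.0986 ± 0.0338 against 0.0709 ± 0.0189 (SD, n = 3 each). So did AstA, at 0.0606 ± 0.0481 against 0.0354 ± 0.0215, Orcokinin (5.18 against 2.47) and, barely, AstC (0.207 against 0.205). The means of CCHa1, CCHa2 and ITP were higher. For Dh31 the highest library was Pex5-labelled replicate 2 (0.0913), and replicate 1 of that group had only 5 UMIs. These are values of the libraries, with no test.

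**Figure D4:**
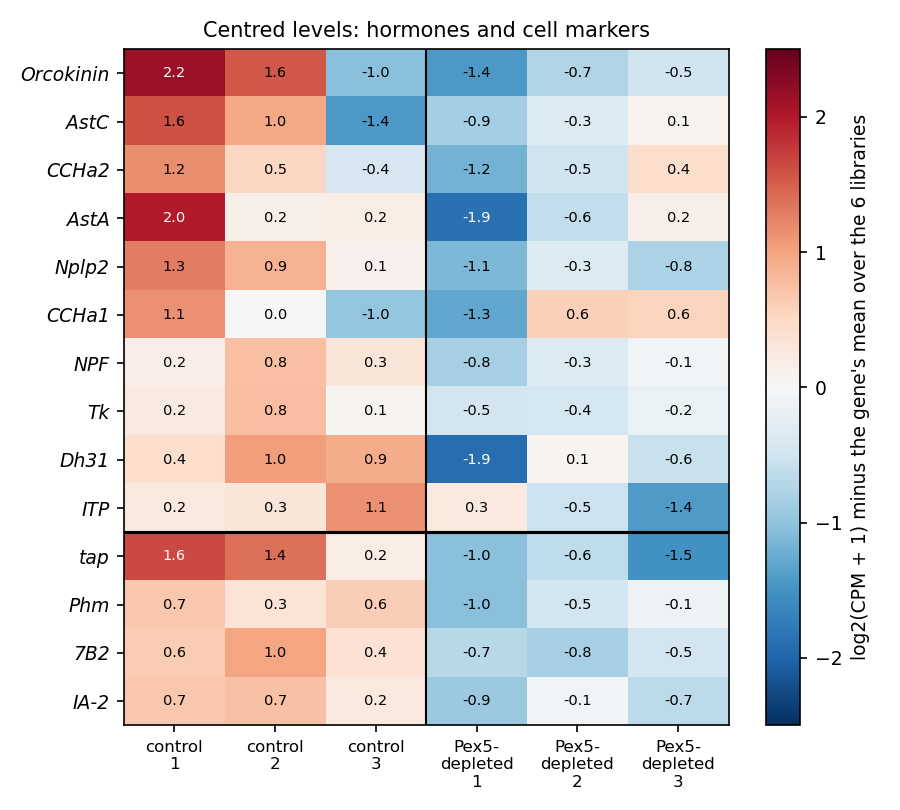
Log2(CPM + 1) of each hormone (above the line) and of the 4 tested non-hormone enteroendocrine markers (below it), minus the gene's mean over the 6 libraries, with hormone rows ordered after their values were seen. Orcokinin and AstC are at -1.04 and -1.43 in control replicate 3, whereas NPF, Tk, Dh31, ITP, Nplp2, AstA and the 4 markers are above 0 in all 3 controls.

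To find genes with a like pattern, log2(CPM + 1) over the 6 libraries was centred on each gene's mean, and the root mean square difference to each hormone was taken over the 5629 other tested genes. The nearest gene to NPF was svr, the carboxypeptidase D gene (difference 0.11), then CG32409 (0.13) and CG4585 (0.13), and the nearest hormone was Tk (0.18). For Tk the nearest were frc (0.12), CG4585 (0.12) and Gs1l (0.13). For Orcokinin CG14989 (0.47), CR44526 (0.56) and spas (0.60) were nearest, and AstC (0.52) was the nearest hormone. The difference is not scaled to how widely a gene varies, so its size cannot be compared between hormones. Centred values ran from -1.43 to 2.16 for Orcokinin and from -0.83 to 0.76 for NPF. CG14989 was at 43.7, 17.1 and 1.34 CPM in the controls against 1.45, 6.73 and 4.44 CPM in the other group. The first match was CR44992 for AstC (0.29), CG13784 for Dh31 (0.13), wcy for CCHa2 (0.10), park for CCHa1 (0.24), Nup154 for AstA (0.40), CG42495 for Nplp2 (0.23) and senju for ITP (0.16). Likeness over 6 libraries, some with few UMIs for the gene, is a description only.

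Other hormone genes were rare in these cells. Of 35 further peptide and protein hormone genes 24 had a row, 12 of those had at most 3 UMIs over the 6 libraries, and only Ilp6, an insulin-like peptide gene, was tested (22, 13 and 3 control UMIs against 6, 38 and 4; log2 fold change 0.09, SE 0.87). Mip, an enteroendocrine peptide gene in the adult gut, had 1 UMI in all 6 libraries together, and sNPF had 3. The summed level of the 24 genes was 10.7 to 17.9 CPM in the controls and 11.6 to 14.3 CPM in the other group. Receptor transcripts for the member peptides were also rare. Of 11 receptor genes 9 had a row, their summed level was at most 13.3 CPM in any library, and only the allatostatin A receptor gene AstA-R2 was tested. It had 0, 25 and 27 UMIs in the controls against 9, 1 and 1 in the other group (log2 fold change -2.10, SE 1.23, adjusted p = 0.516 in the edgeR fit). The NPF receptor gene NPFR had 2, 0 and 0 against 2, 4 and 0 UMIs, and the tachykinin receptor gene TkR99D had 2, 0 and 3 against 4, 3 and 4.

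The directions of the hormone fold changes held under most of the settings tried, and the calls did not. Of the 10 genes, 9 kept a negative fold change in all 13 alternatives, and CCHa1 turned positive in 4. Each fit without 1 library called 0 hormone genes lower, except that without control replicate 3, which called Orcokinin and AstC.

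**Figure D5:**
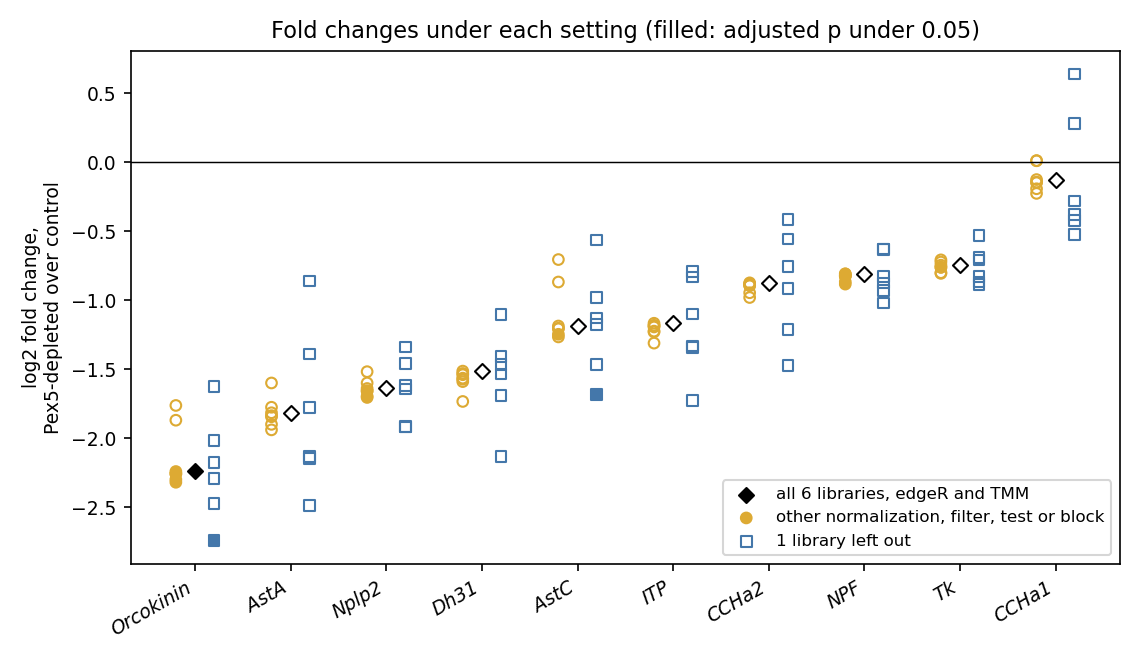
Log2 fold change of each hormone gene with all 6 libraries (black), under other normalizations, filters, tests or the replicate block (yellow) and with 1 library left out (blue), filled where the adjusted p was under 0.05. Points lie below 0 for every gene but CCHa1, which reaches 0.64.

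The authors' deposited table of fold changes was read for these genes as well. In it the signed linear fold was -6.70 for NPF, -6.23 for Orcokinin, -5.72 for CCHa2, -3.01 for Dh31, -2.84 for AstC, -2.75 for AstA, -2.27 for Nplp2, -1.90 for Tk, -1.35 for CCHa1 and 1.19 for ITP. The authors' deposited table leaves both sides of its comparison unnamed. Across the 5424 tested genes it shared with the count fit, its log2 fold had a median of -1.39 and a Pearson r of 0.0277 with the fold changes from the counts, across genes that are not independent replicates, so its values were not used beside those above.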

How the data were processed

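RNA of the sorted cells was made into QIAseq UPX 3' libraries, per the labels' protocols. The authors deposited raw UMI counts per gene and well index. Reads mapping to several loci were dropped, per the deposited run metrics. The tools HISAT2, StringTie and DESeq2 and the build dm6 appear, without roles or versions, in the submitters' processing notes. The 29 columns of other wells and 6 spike-in rows (7 UMIs, 3.37e-05% of the total) were not used. The deposited fold change table holds a signed linear score with p-values and false discovery rates. The notes do not tie DESeq2 to this table by a stated role.

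Counts were tested with edgeR 4.0.16 (R 4.3.3) by its quasi-likelihood F test, with TMM factors, its expression filter at a minimum count of 10, no covariate, and p-values adjusted by Benjamini-Hochberg across every gene tested, at 0.05. The standard error is the log2 fold change divided by the square root of F, without sign. CPM values are scaled by library size and TMM factor. Ratios were tested with SciPy 1.17.1. Alternatives were RLE factors, no factor, 2 filters, DESeq2 1.42.0, limma-voom 3.58.1, the replicate number as a block, and each library left out. The fit was tested on simulated data, where it recovered 13 of 95 changes of a factor of 2 and 65 of 98 of a factor of 4. It made 3 false calls. A gene that did not pass may therefore still differ by a factor of 2, or of 4. A count of 0 allows up to 3 UMIs, or 0.626 to 1.17 CPM, counting error only. Gene positions are those of the count table and equal those of Ensembl release BDGP6 for all 10 genes. Nplp2 was matched there by symbol and position, since its identifier differs. Named were the 10 members, genes of the other lists that passed or had the smallest p, and the nearest profiles; further list genes were chosen after their values were seen. The members and lists were chosen with earlier results of these data known.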

Additional observations from a re-analysis of the deposited data

How the results depend on the processing

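The count of hormone genes called lower was 1 with all 6 libraries. It was 2 with no composition factor, 4 with no count filter, 3 with DESeq2, 0 with the replicate block, and 0 to 2 in the fits without 1 library. It stayed at 1 with RLE factors, the filter of 10 UMIs in 3 libraries and limma-voom (NPF there, not Orcokinin). The count called higher was 0 throughout. The calls with no count filter carry little weight, since that fit gave Orcokinin, with widely spread controls, an edgeR adjusted p of 1.34e-36. Over all genes 46 were lower and 47 higher; these were 109 and 88 with no count filter, 120 and 88 with DESeq2, and 5 to 33 and 12 to 47 without 1 library. With the replicate block 23 genes were lower and 35 higher, and Orcokinin had an edgeR adjusted p of 0.155 in that fit. Same-numbered libraries had deviations from their group means that correlated at -0.0102, -0.0508 and 0.0119. Libraries with different numbers gave correlations of -0.0486 to 0.067. Whether the replicate numbers mark paired samples was not tested. Of the fold changes, CCHa1 turned to 0.0121 with limma-voom, 0.0131 with the block, 0.641 without control replicate 1 and 0.284 without Pex5-labelled replicate 1 (-0.522 to 0.641 over the fits without 1 library). The log2 ratio of AstC to Tk turned from -0.0365 to 0.656, 0.0734 and 0.159 without control replicates 1 and 2 and Pex5-labelled replicate 1 (range -0.839 to 0.656), and that of NPF to Tk to 0.0537 without Pex5-labelled replicate 1 (range -0.179 to 0.0537). The cause of these changes was not tested. AstA, Dh31 and ITP had under 10 UMIs in 1 library each, which widens the counting error of those values.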
